A study of Mus musculus with 4 samples.

Results

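Ncam1, the gene of the neural cell adhesion molecule NCAM, and 3 genes of the ST8SIA sialyltransferase family (St8sia1, St8sia2 and St8sia4) carried 19 IMP2 clusters in embryonic mouse brain. They were taken from the list of RNA-binding clusters as every entry whose symbol was Ncam1 or began with St8sia. They make up 4 of the 761 genes in the list and 19 of its 1828 clusters. Clusters are stretches of RNA where sequenced tags pile up after the RNA has been crosslinked to a protein and pulled down with it.

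The RNA came from brains of Swiss Webster embryos at E14, and the protein pulled down was IMP2, which binds RNA and is encoded by Igf2bp2. The method, HITS-CLIP, uses an antibody and a gel to isolate the crosslinked complexes before sequencing, and the protocol lists IMP2 antibodies from both mouse and rabbit. Tissue was crosslinked with ultraviolet light at 254 nm, with a stated dose of 300 mJ per square centimetre and 3 exposures. The RNA was cut with benzonase to fragments of about 40 bases. Of 4 libraries, 2 have an R in the title and 2 an M, letters that the labels do not explain, and the number of embryos behind each is not stated in them. The deposited list gives 1 value per cluster for the series as a whole, so no library, control immunoprecipitation or input could be compared, and the values have no replicate error and no test.

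NCAM is a surface glycoprotein of the immunoglobulin superfamily that binds NCAM on neighbouring cells. In the developing brain it carries polysialic acid, a long, negatively charged sugar chain that loosens adhesion while neurons migrate and axons grow. The chain is built by the polysialyltransferases ST8SIA2 and ST8SIA4. ST8SIA1 is related to them but makes the ganglioside GD3, a sialylated lipid, and is not a polysialyltransferase. The sialyltransferase genes thus fall into 2 kinds, and the name polysialyltransferase fits St8sia2 and St8sia4 only.

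All 19 clusters lay in 3' UTRs, the untranslated part of the transcript after the stop codon (100%, exact Clopper-Pearson 95% interval 82.4 to 100, which covers counting error only and treats clusters of the same transcript as independent). Each cluster lay inside its 3' UTR over its whole width, and none was shared with another gene. In the list as a whole, which is named as one of RefSeq mRNAs, 1721 of 1828 clusters were in 3' UTRs. Nothing particular to these 4 genes is therefore read from their position in 3' UTRs. Ncam1 held 12 of the 19 clusters, St8sia2 held 5, and St8sia4 and St8sia1 held 1 each. All 4 genes are on the minus strand of mm9, and distances below run from the stop codon towards the 3' end. Tag totals per library were not among the values analysed here, and the depth behind the heights is therefore unknown.

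**Figure D1:**
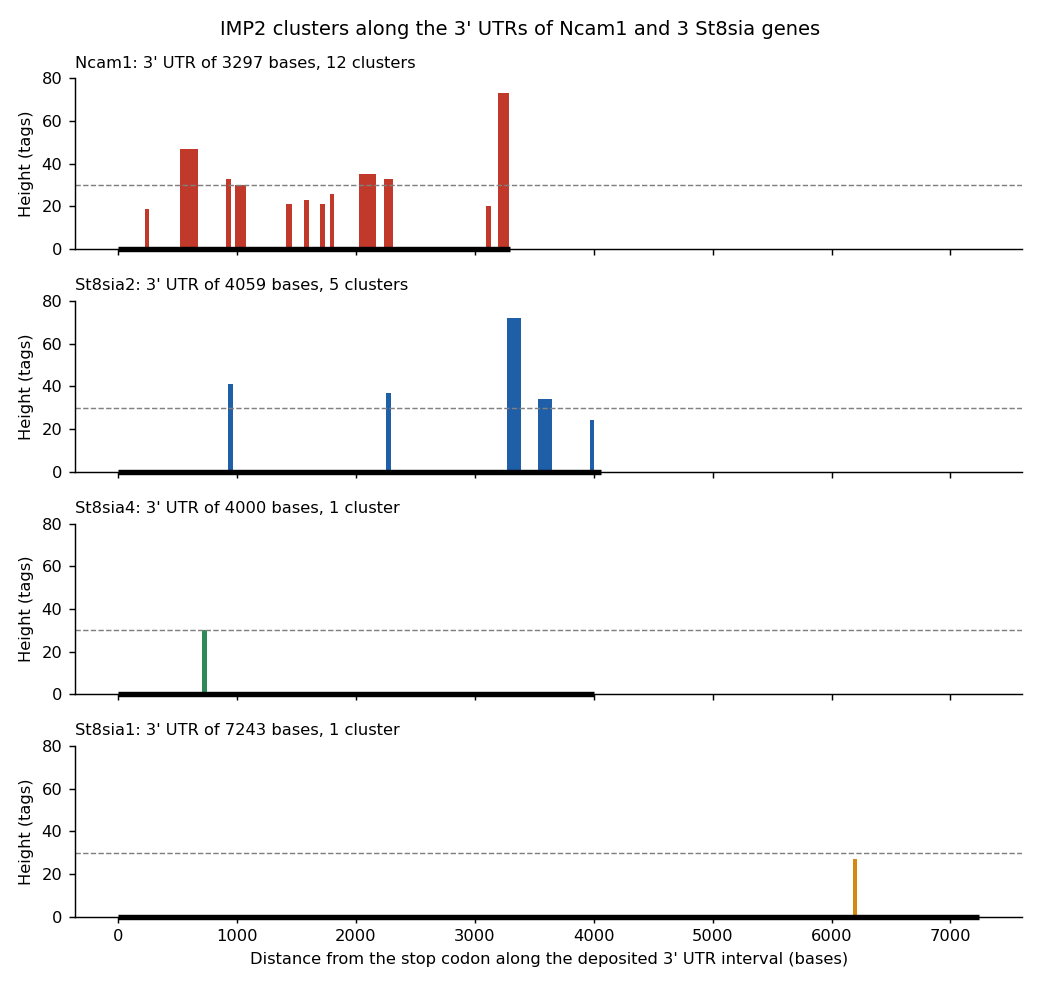
Height of each IMP2 cluster (vertical axis, overlapping tags) against its distance from the stop codon in bases for Ncam1, St8sia2, St8sia4 and St8sia1. Bars are as wide as the clusters, black lines show the length of each 3' UTR, and the dashed line is the median height of the list (30). The highest bar of Ncam1 (73) stands at the very end of its 3' UTR, that of St8sia2 (72) stands 3274 bases after the stop codon, and the other genes have 1 bar each.

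Ncam1 carried its clusters along a 3' UTR of 3297 bases on chromosome 9, positions 49310251 to 49313547. The list ties them to transcripts NM_001113204 and NM_001081445, which share this interval, so the clusters do not tell these transcripts apart. The RefSeq genes used for names give 4 mRNA transcripts for Ncam1, and only these 2 were in the list. Clusters covered 842 bases, which is 25.5% of the 3' UTR, against a median of 4.70% (interquartile range 2.16 to 10.6) over the 729 genes with a cluster in a 3' UTR. Ncam1 had 3.64 clusters per kilobase of 3' UTR, against a median of 0.861 over the same genes. Only 8 of the 761 genes had more clusters than Ncam1, and 7 others had 12 as well, while 419 genes (55.1%) had a single cluster.

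The highest cluster of Ncam1 was the last, with a height of 73 and a fold of 9.17. The height was taken as the count of tags at the deepest point of the pile, and the fold is the authors' ratio of the height to a reference level that the file does not define. This cluster spans positions 49310265 to 49310353 and ends 14 bases before the annotated end of the transcript. Its height was exceeded by 39 of the 1828 clusters of the list. A second, low cluster of height 20 and fold 3.98 lay just before it, at 49310412 to 49310456, with 58 bases between them. The end of the Ncam1 3' UTR thus held a tall cluster and a low one side by side.

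A stretch of 776 bases without a cluster separated these 2 from the other 10, which lay between 229 and 2315 bases after the stop codon. The highest of the 10 reached 47 with a fold of 5.25 and began 519 bases after the stop codon, at 49312876 to 49313028. At 153 bases it was also the widest cluster of Ncam1. Next downstream came a pair of heights 33 and 30 (folds 4.60 and 4.30), at 49312598 to 49312638 and 49312474 to 49312567, only 30 bases apart.

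Around the middle of the 3' UTR the Ncam1 clusters were low. Heights of 21, 23, 21 and 26, with folds of 2.47, 2.84, 2.38 and 2.96, followed each other between 1408 and 1819 bases after the stop codon. Their positions were 49312090 to 49312139, 49311945 to 49311985, 49311809 to 49311847 and 49311729 to 49311764. Further on, heights of 35 (fold 5.25, 49311377 to 49311518) and 33 (fold 4.22, 49311233 to 49311313) stood again above the median height of the list. The cluster nearest the stop codon, at 49313288 to 49313318, was the lowest of Ncam1, with a height of 19 and a fold of 2.84. By midpoint, 6 clusters lay in the first 50% of the 3' UTR and 6 in the rest.

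Among genes with at least 5 clusters in the 3' UTR, few had a highest cluster as far above their median height as Ncam1 did. This measure was chosen after the values were seen. The last cluster of Ncam1 was 1.55 times as high as its next highest and 2.61 times as high as the median of its 12 clusters (28). Over the 87 genes with at least 5 clusters in the 3' UTR, the ratio of the highest to the median had a median of 1.62. Stmn2 (2.74), the gene of the microtubule-destabilising protein stathmin-2, was alone above Ncam1 among them and was picked out after its value was seen. In 14 of these 87 genes (16.1%), Ncam1 included, the highest cluster was also the one nearest the 3' end. Within Ncam1, wider clusters tended to be higher (Spearman's rho 0.72 over 12 clusters, as a description of clusters that share a transcript), as they did over all 1828 clusters (0.53).

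St8sia2, which encodes the polysialyltransferase also known as STX, the main one of the embryonic brain, had 5 clusters in a 3' UTR of 4059 bases on chromosome 7, positions 81084006 to 81088064 (NM_009181). They covered 347 bases, or 8.55%, and had a density of 1.23 per kilobase, both above the medians of 4.70% and 0.861 per kilobase. The highest cluster of St8sia2 reached 72 with a fold of 14.08, at 81084676 to 81084790. Its height was exceeded by 43 clusters of the list and its fold by 1.42% of them. It was 1.76 times as high as the next highest cluster of the gene and 1.95 times as high as the median of the 5.

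The other clusters of St8sia2 stood on both sides of the tall one. The first began 922 bases after the stop codon, with a height of 41 and a fold of 7.56, at 81087102 to 81087142. The next, of height 37 and fold 6.28, was 1293 bases further on at 81085767 to 81085808. Past the tall cluster lay one of height 34 and fold 6.63, 118 bases wide, at 81084414 to 81084531, and one of height 24 and fold 5.26 at 81084062 to 81084092. Thus 4 of the 5 clusters were in the second 50% of the 3' UTR, and 3 of them were in its last 785 bases. The last one ended 56 bases before the annotated end and was the lowest, whereas in Ncam1 the last was the highest.

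St8sia4, which encodes the polysialyltransferase also known as PST, had a single cluster, although its 3' UTR of 4000 bases (chromosome 1, 97484259 to 97488258, NM_009183) is about as long as that of St8sia2. The RefSeq genes used for names give 2 mRNA transcripts for St8sia4, and only this 1 was in the list. The cluster had a height of 30 and a fold of 6.38 and began 709 bases after the stop codon, at 97487514 to 97487549. Its height equalled the median of the list. It covered 0.90% of the 3' UTR, and 94.1% of the 729 genes had a larger share covered. The highest cluster of St8sia2 was 2.4 times as high as that of St8sia4. How much of each transcript was present in the tissue was not measured in these data, and its part in this difference was not tested. In whole brain, more cells with a transcript and more tags from each cell cannot be told apart.

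St8sia1, the gene of the GD3 synthase, likewise had 1 cluster, in a 3' UTR of 7243 bases on chromosome 6, positions 142770061 to 142777303 (NM_011374). That is the longest of the 4, and only 2.88% of the 729 genes had a longer one. The cluster had a height of 27 and a fold of 6.75 and lay at 142771087 to 142771120, 6183 bases after the stop codon and 1026 before the end. It covered 0.47% of the 3' UTR. In the number of clusters and in the height of its cluster, St8sia1 stood beside St8sia4 and not beside St8sia2.

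**Figure D2:**
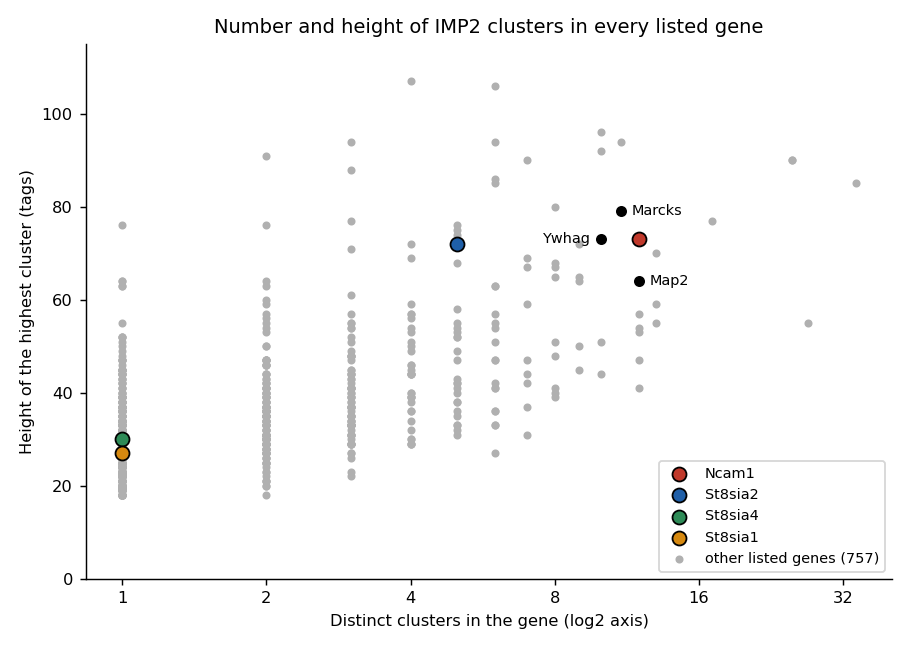
Height of the highest cluster (tags) against the number of distinct clusters (log2 axis) for each of the 761 listed genes. Ncam1 (12 clusters, 73) lies towards the upper right, and St8sia2 (5, 72) lies about as high with fewer clusters. St8sia4 (1, 30) and St8sia1 (1, 27) lie among the many genes with 1 cluster. Black points are the 3 genes most like Ncam1.

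Set against all listed genes, Ncam1 and St8sia2 were nearly level in rank by the height of the highest cluster and far apart by the number of clusters. Ncam1 was at rank 25 and St8sia2 at rank 27 of 761 by height, where the median gene reached 31. By number of clusters 8 genes had more than Ncam1, and 66 had more than St8sia2. By the median height over the clusters of a gene the 2 were no longer level, with Ncam1 at rank 387 and St8sia2 at rank 123. By highest cluster St8sia4 was at rank 410, close to the median gene, and St8sia1 was lower, at rank 513. By median height they were at ranks 294 and 444, which put St8sia4 ahead of Ncam1. These ranks describe a single list without replicates, and neighbouring ranks often have equal heights: 3 other genes share the height of 72 and 36 others that of 27.

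The fold ordered the genes differently. St8sia2 was at rank 26 by its highest fold, while Ncam1 was at rank 138. Over the list, 49.9% of clusters had a fold above its median (5.4). Of the 12 clusters of Ncam1 only 1, the highest, was above it. Of the 5 clusters of St8sia2, which share a transcript, 4 were above it, as were the single clusters of St8sia4 and St8sia1. Dividing height by fold gives the reference level that the fold implies. It was 5.03 to 8.95 tags for the clusters of Ncam1 and 4.56 to 5.89 for those of St8sia2, and it was 4.70 for St8sia4 and 4 for St8sia1. Over the list the median was 5.96. This level is the fold restated for a given height, and what the authors' reference level was made from was not tested.

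**Figure D3:**
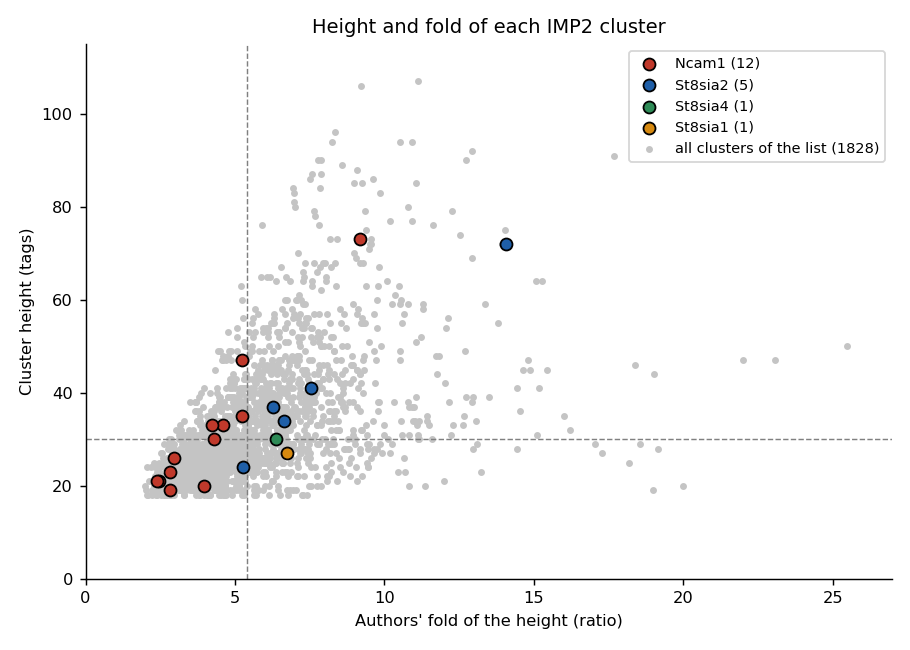
Cluster height (tags) against the authors' fold (ratio) for the 19 clusters of the 4 genes and for all 1828 clusters, with dashed lines at the medians of the list (30 and 5.4). Of the Ncam1 clusters 11 lie left of the median fold, while the highest cluster of St8sia2 (72, fold 14.08) lies far to the right of that of Ncam1 (73, fold 9.17).

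The genes most like Ncam1 in number of clusters, highest height and length of 3' UTR, by the distance over these 3 measures on a log2 scale among 729 genes, were Marcks, Map2 and Ywhag. Marcks, which encodes a protein linking the membrane to actin, had 11 clusters, a highest height of 79 and a 3' UTR of 2865 bases. Map2 (Mtap2 in the list), a microtubule protein of dendrites, had 12 clusters, a highest height of 64 and 3576 bases. Ywhag, a 14-3-3 adaptor protein gene, had 10 clusters, a highest height of 73 and 2616 bases. Clusters covered 48.5% of the 3' UTR in Marcks, 26.1% in Map2 and 42.0% in Ywhag, so the 25.5% of Ncam1 was nearest that of Map2. St8sia4 was most like Rsbn1, Ube2k and Ago1 (Eif2c1 in the list), each with 1 cluster of height 30 or 31, and 121 genes lay within a distance of 1 of it, against 18 for Ncam1, where each measure was divided by its SD over the 729 genes.

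Of the 6 ST8SIA genes, 3 were in the list. A share of 3.47% of all 21900 protein-coding genes was listed, but since being listed chose these members, nothing is read from their count. St8sia3, St8sia5 and St8sia6 had no cluster in the list analysed here. Of the 6, only St8sia2 had a cluster higher than the median height, and only St8sia2 had at least 2 clusters. Over all protein-coding genes these shares were 1.87% and 1.56%. St8sia2 is itself a chosen member, so nothing is read from these counts either. Further steps of sialic acid metabolism were empty too. None of 14 sialyltransferases of other families (the ST3GAL, ST6GAL and ST6GALNAC genes, which add single sialic acids) was listed, and neither was any of 11 genes that make, activate, transport or remove sialic acid, among them Gne and Cmas, which make and activate the sugar. A share of 3.47% of 14 or of 11 genes comes to fewer than 1 gene, so lists of this size cannot show a shortfall.

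Ganglioside synthesis, the pathway of St8sia1, had 2 of 11 genes listed, and St8sia1 was chosen for being one of them. Without it 1 of 10 was listed (10%, against 3.47% of all protein-coding genes), which was Ugcg, which encodes the glucosylceramide synthase of the first step. Ugcg had 2 clusters, and the higher, at 59234919 to 59234995 on chromosome 4, had a height of 34 and a fold of 11.01. St3gal5, which makes the substrate of GD3 synthase, and B4galnt1, which acts on its product, were not among the listed genes.

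Among 26 neural adhesion molecules of the immunoglobulin superfamily, 6 were listed, one of them Ncam1, which was chosen for being in the list. Without Ncam1, 5 of 25 were listed (20%, against 3.47% of all protein-coding genes), with a median highest height of 33 against 31 for all listed genes. Ncam1 had the highest cluster and the most clusters of the 6. Cadm3, a synaptic cell adhesion molecule gene, came next with 3 clusters and a height of 41. Chl1, the close homologue of the adhesion molecule L1, had 4 clusters and reached 34. Nfasc, which encodes neurofascin, had 1 cluster of height 33. Cadm1 (32, 2 clusters) and Negr1 (29, 4 clusters) completed the group. Ncam2, the closest relative of Ncam1, and L1cam had no cluster in the list. Of the 25 genes without Ncam1, 4 had a cluster higher than the median height (against 1.87%) and 4 had at least 2 clusters (against 1.56%). Between Ncam1 and the other 5 genes lay a gap from 73 to 41, and all listed clusters that define these heights were in 3' UTRs.

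Of 21 genes of NCAM partners and signalling, 9 were listed (42.9%, against 3.47%), with a median highest height of 35. These 21 genes were chosen with earlier results of these data known, so the share is a description only. Marcks, whose protein has been reported to bind polysialic acid, led with 79. Sptbn1 (Spnb2 in the list), which encodes the beta-spectrin that ties NCAM to the membrane skeleton, had 5 clusters and reached 53 with a fold of 7.97. Ncan, the gene of the matrix proteoglycan neurocan that binds NCAM, had 6 clusters and reached 51. Ank2, an ankyrin gene, had 5 clusters and reached 36. The other 5, which were Ank3, Sptan1, Ptprz1, Gap43 and Fgfr2, had 1 or 2 clusters and heights of 26 to 35. Of the 21 genes, 7 had a cluster higher than the median height (against 1.87%) and 5 had at least 2 clusters (against 1.56%). Of the receptors and kinases among the 21 genes, Fgfr2 was thus listed (height 26, fold 10.67). Fgfr1 and Fyn were among those without a cluster in the list.

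Of 8 genes of other reported carriers of polysialic acid, 3 were listed: St8sia2 and St8sia4, whose enzymes also polysialylate themselves, and Cadm1, the gene of the adhesion molecule SynCAM 1. Without the 2 sialyltransferase genes, which were chosen for being listed, the count was 1 of 6 (16.7%, against 3.47%). Cadm1 had a height of 32, below the 73 of Ncam1, and Nrp2, the gene of the polysialylated receptor neuropilin-2, had no cluster in the list. All related lists were written with earlier results of these data known, and their counts are descriptions. Many of these genes are expressed in neurons, and the part of transcript abundance in their counts was not tested.

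**Figure D4:**
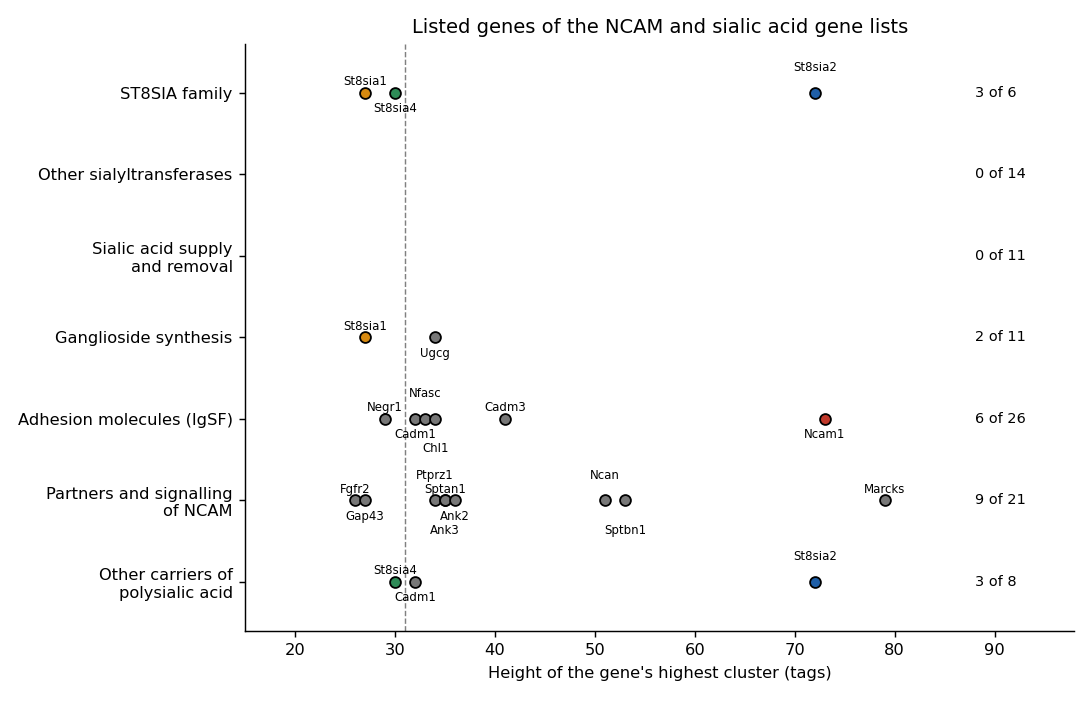
Height of the highest cluster (tags) of each listed gene in 7 lists around NCAM, sialic acid and adhesion molecules of the immunoglobulin superfamily (IgSF); the figures at the right give listed genes of all genes in the list, and the dashed line is the median over all listed genes (31). Ncam1 (73), St8sia2 (72) and Marcks (79) stand apart to the right, and the lists of other sialyltransferases and of sialic acid supply and removal are empty.

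Markers of cell types were looked up in the list. It holds IMP2 clusters and not transcript amounts, so it cannot show which cells the tissue contained. Of 8 markers of young neurons 6 were listed, with highest heights of 27 to 90, where 3.47% of all protein-coding genes were listed. Of 7 neural progenitor markers 2 were listed, as were 1 of 5 vessel markers, 2 of 4 meningeal markers and 3 of 6 blood markers (among them Hba-a1 and Hba-a2, which share their cluster), while none of 7 markers of oligodendrocytes and astrocytes and none of 5 microglial markers was. A share of 3.47% of lists this short comes to fewer than 1 gene, so they cannot show a shortfall.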

How the data were processed

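IMP2 HITS-CLIP was run on E14 mouse brain in 4 libraries (groups IMP2_R and IMP2_M, from the titles). Per the submitters' processing notes, Bowtie, FastQC and build mm9 were used. For the peak caller, its thresholds and the pooling of libraries no source used here gives a statement. The authors deposited a single list with a cluster height in whole numbers of at least 18, read here as a signal (pileup) value. Per its headers the list also gives a fold, a ratio of at least 2. The overlap width, another deposited value in bases, was used to check that clusters lay inside 3' UTRs.

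Python 3.11.15, pandas 2.3.3, numpy 2.4.6 and scipy 1.17.1 were used. The 2865 lines were reduced to distinct clusters by chromosome, start, end and strand, and starts were made 1-based. Of 1099 transcripts, 1088 were matched by accession and 11 by name to RefSeq genes of GRCm38, which supplied names and the set of protein-coding genes but no coordinates. Region was assigned by the midpoint, and genes were ranked by their highest cluster. Shares covered use the longest deposited 3' UTR interval. Coverage, joining and region steps were tested on simulated data. The members, the related lists and the markers were chosen with earlier results of these data known, and 1 gene of the list of NCAM partners is not reported here. The rule for names took the members, up to 4 listed genes per related list and the 3 genes most like Ncam1 and St8sia4 in cluster number, highest height and 3' UTR length, each on a log2 scale divided by its SD; other genes named were chosen after their values were seen. Alternatives were joined clusters, stricter height or fold, other gene levels, other region rules and stricter listing.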

Additional observations from a re-analysis of the deposited data

How the results depend on the processing

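Values rest on 1 list of unknown depth and without replicates, so neither replicate error nor a test could be had, and PCR duplicates could not be checked. No paired analysis was possible because the list holds no value of a single library, and no library could be left out for the same reason. Of 50 alternatives, 31 left the value unchanged or, for counts, within 1.5 times, among them all region rules, the shortest 3' UTR interval and joining at up to 50 bases (Ncam1 then had 10 clusters). Many of these could not have moved. Every cluster lay wholly inside its 3' UTR, and a gene with 1 cluster has none to join. Shortest and longest intervals gave the same coverage, and lists with 0 listed genes stay at 0. The count of 31 therefore does not measure how stable the values are. With only clusters higher than the median height, Ncam1 kept 5 of 12 clusters, St8sia2 kept 4 of 5, and St8sia4 and St8sia1 kept 0. Over the list 46.9% of clusters were higher than the median height, and the St8sia4 cluster equalled it. With only folds above the median fold, Ncam1 kept 1 and St8sia2 kept 4, where 49.9% of the list was above it. St8sia4 and St8sia1 then kept their 1 cluster each. The median over clusters was 28 for Ncam1 and 37 for St8sia2 in place of the highest. By highest fold the ranks were 138 for Ncam1, 26 for St8sia2, 395 for St8sia4 and 347 for St8sia1; by median height they were 387, 123, 294 and 444. Of the ST8SIA genes 1 was listed with a cluster above the median height and 1 with at least 2 clusters, and of the ganglioside genes also 1 and 1. With at least 2 clusters, 5 NCAM partners were listed. The changes follow from the alternatives' own construction, which drops low clusters or orders genes by another value.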
